A study of Homo sapiens with 6 samples.

Results

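CAV1, LIX1, TMEM100 and PFN2 are 4 genes that lie outside the B-cell programme and whose transcripts were lower after bryostatin in SC1, a line derived from a human B-cell lymphoma. They were picked by symbol from the 15802 genes of the deposited table, because they stood among the falls of largest log2 fold change at a sizeable level. The tested libraries came from SC1 cells given bryostatin at 1 nM (3 libraries, named bryostatin 1 to 3), and their controls from SC1 cells given the solvent DMSO (3 libraries, DMSO 1 to 3). Bryostatin is a marine natural product known as a ligand and activator of protein kinase C. All libraries came from this single line, and the sources used here give no time of exposure. Since nothing states whether replicates came from different cultures, SDs and p-values cover only how far these samples differ, and that may be technical.

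The proteins act in separate processes. CAV1 encodes caveolin-1, the membrane protein that, together with the cavins, builds the flask-shaped pits called caveolae, which are abundant in endothelial cells, adipocytes and fibroblasts and rare in lymphocytes. PFN2 encodes profilin-2, a profilin enriched in brain. Profilins bind actin monomers and hand them to formins and ENA/VASP proteins at growing filament ends. TMEM100 encodes a small transmembrane protein that in mouse endothelium acts downstream of BMP signals received by the receptor ALK1, and in mouse sensory neurons it modulates the channels TRPA1 and TRPV1. LIX1 was first described in the chick limb, and in chick gut mesenchyme it is linked to the co-activator YAP1.

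The CAV1 sequences are shown because, of the 4 genes, the reference set used here held promoter windows for CAV1 only. CAV1 lies next to its relative CAV2. RefSeq (GRCh38.p14) gave 3 windows for CAV1, each from 250 bases before to 50 bases after an annotated start. The first 2 overlap, so the first and the third are printed here, with the first CAV2 window for comparison, all on the plus strand. Capitals mark matches to the GC box GGGCGG on either strand.
CAV1, upstream start, chr7:116524759-116525058: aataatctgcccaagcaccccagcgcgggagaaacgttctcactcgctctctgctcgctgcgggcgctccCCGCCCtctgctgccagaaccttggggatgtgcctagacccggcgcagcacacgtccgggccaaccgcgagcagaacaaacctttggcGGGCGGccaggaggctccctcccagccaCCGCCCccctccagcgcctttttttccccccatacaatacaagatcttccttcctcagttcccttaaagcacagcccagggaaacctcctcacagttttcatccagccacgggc
CAV1, downstream start, chr7:116526112-116526411: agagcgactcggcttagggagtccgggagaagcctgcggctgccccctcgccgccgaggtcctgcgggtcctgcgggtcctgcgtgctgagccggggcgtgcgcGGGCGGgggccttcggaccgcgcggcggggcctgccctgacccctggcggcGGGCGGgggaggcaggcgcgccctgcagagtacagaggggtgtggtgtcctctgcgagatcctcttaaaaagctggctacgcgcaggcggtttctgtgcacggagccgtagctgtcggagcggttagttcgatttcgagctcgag
CAV2, chr7:116499488-116499787: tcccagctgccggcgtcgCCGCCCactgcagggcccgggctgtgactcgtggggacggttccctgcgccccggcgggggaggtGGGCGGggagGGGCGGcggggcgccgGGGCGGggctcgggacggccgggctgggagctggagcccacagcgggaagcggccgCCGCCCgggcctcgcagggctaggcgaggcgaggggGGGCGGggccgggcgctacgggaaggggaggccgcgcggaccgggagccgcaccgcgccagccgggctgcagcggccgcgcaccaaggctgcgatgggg
The upstream CAV1 window held 3 GC boxes, the downstream window 2 and the CAV2 window 6, and 45.0% of all 35116 such windows held at least 1. The AP-1 or TPA response element TGANTCA, searched on both strands, was found in 7.71% of all windows and had 0 matches in the CAV1 and CAV2 windows. The E-box CACGTG (7.26% of windows) and the TATA box TATAAA (11.5%) also had 0 matches there. These are descriptions of letters and not of binding. The GC content was 62.3% in the upstream CAV1 window, 71.0% in the downstream one and 82.7% in the CAV2 window, against a median of 58.7% over all windows. Windows of LIX1, TMEM100 and PFN2 were absent from the reference set and so were not analysed here.

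Total expected counts were 18162161 to 18458633 in bryostatin libraries and 18545489 to 18915394 in DMSO libraries. Bryostatin 1 stood apart. Its genes lay a median of 0.273 from the DMSO mean in either direction on the log2 scale, against 0.151 and 0.156 in bryostatin 2 and 3. The B-lineage label fitted its markers, since the 7 genes MS4A1, CD79A, CD79B, PAX5, EBF1, CD22 and BLNK were all tested, with a summed TPM of 2829 to 3274 in bryostatin and 2257 to 2321 in DMSO libraries. Endothelial markers summed to 0.690 to 0.780 TPM in bryostatin and 0.890 to 1.13 TPM in DMSO libraries, and stromal markers to 2.06 to 4.25 TPM in bryostatin and 2.88 to 4.05 TPM in DMSO libraries. Epithelial, myeloid and T or NK markers summed to at most 9.39, 2.80 and 0.280 TPM in bryostatin and 9.72, 2.28 and 0.120 TPM in DMSO libraries. Of the 8 endothelial markers, 7 had fewer than 10 counts in every library, PECAM1 being the exception. These lineages are given because CAV1 and TMEM100 are endothelial or stromal genes, and their part in the results was not tested. In bulk RNA, fewer cells that express a gene and less RNA per cell cannot be told apart.

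CAV1 (Entrez 857, chromosome 7, 116525009 to 116561185, GRCh38) had 7.09, 9.22 and 8.63 CPM in bryostatin 1, 2 and 3, against 19.5, 20.0 and 20.8 CPM in DMSO 1, 2 and 3. CPM are counts relative to the TMM-scaled library total. The groups did not overlap, and the lowest DMSO library was 2.12 times the highest bryostatin library. The means were 8.31 ± 1.10 in bryostatin and 20.1 ± 0.657 CPM in DMSO libraries (SD, n = 3 each), and the log2 fold change, bryostatin over DMSO, was -1.27 ± 0.12 (SE), which leaves 41.4% of the DMSO level. Bryostatin 1 was the lowest of all libraries, and without it the log2 fold change was -1.17. The counts behind these values were 124, 171 and 157 in bryostatin and 376, 372 and 394 in DMSO libraries. Counting error alone gives a coefficient of variation of about 8.15% in bryostatin libraries, where 13.2% was observed, and of about 5.13% in DMSO libraries, where 3.26% was observed.

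LIX1 (Entrez 167410, chromosome 5, 97091867 to 97142611) had 7.54, 5.87 and 6.27 CPM in bryostatin 1, 2 and 3, against 14.4, 15.8 and 16.96 CPM in DMSO 1, 2 and 3. The lowest DMSO library was 1.91 times the highest bryostatin library, so the groups again did not overlap. The means were 6.56 ± 0.873 in bryostatin and 15.7 ± 1.27 CPM in DMSO libraries (SD, n = 3 each), with a log2 fold change of -1.26 ± 0.13 (SE), or 41.7% of the DMSO level. Here bryostatin 1 was the highest of its group, the reverse of CAV1, and without it the log2 fold change was -1.37. LIX1 had the fewest counts of the 4 genes, 109 to 132 in bryostatin and 278 to 321 in DMSO libraries. The annotated gene LIX1-AS1, a long non-coding RNA on the opposite strand, covers the whole of LIX1 in GENCODE release 29. No source used here says whether counting used strand, so reads from any bases that exons of the pair share could not be told apart. AC006159.1 is antisense to CAV1 over 9252 bases, and AC117386.2 to PFN2 over 11575 bases of its GENCODE span. The latter starts at 150039214, beyond the RefSeq end of PFN2 at 149970895. These overlaps, like that of LIX1-AS1, are of gene spans, and overlap of exons was not examined.

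PFN2 (Entrez 5217, chromosome 3, 149964904 to 149970895) was the most abundant of the 4 and had the widest spread under bryostatin. It had 67.0, 39.4 and 43.1 CPM in bryostatin 1, 2 and 3, against 93.8, 93.0 and 94.5 CPM in DMSO 1, 2 and 3. Bryostatin 1 lay well above the other treated libraries and below every DMSO library, by a factor of 1.39 from the lowest of them. The means were 49.8 ± 15.01 in bryostatin and 93.8 ± 0.769 CPM in DMSO libraries (SD, n = 3 each), and the log2 fold change was -0.91 ± 0.18 (SE), or 53.1% of the DMSO level. Without bryostatin 1 it was -1.19. Counting error gives a coefficient of variation of about 3.34% in bryostatin libraries, whereas 30.1% was observed, and in DMSO libraries 0.820% was observed against 2.37% from counting. GENCODE annotates 18 PFN2 transcripts, 14 of them protein coding, and the deposited gene-level values do not separate them. The GENCODE gene ANKUB1 overlaps PFN2 over 3482 bases on the same strand.

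TMEM100 (Entrez 55273, chromosome 17, 55719627 to 55732081) had 9.72, 9.54 and 10.004 CPM in bryostatin 1, 2 and 3, against 17.6, 17.8 and 15.1 CPM in DMSO 1, 2 and 3. In CPM its treated libraries lay closest together of the 4 genes, and bryostatin 1 was in the middle of them. The means were 9.75 ± 0.234 in bryostatin and 16.8 ± 1.53 CPM in DMSO libraries (SD, n = 3 each), and the log2 fold change was -0.79 ± 0.11 (SE), or 58.0% of the DMSO level, with -0.79 also without bryostatin 1. The CPM spread under bryostatin, a coefficient of variation of 2.40%, was below the 7.53% that counting gives at 170 to 182 counts. DMSO 3 was the lowest control, and without it the log2 fold change was -0.86. In TPM, TMEM100 had 9.05, 10.61 and 10.96 in bryostatin 1, 2 and 3, with bryostatin 1 lowest. On that scale LIX1 lay closer together for its level, at 2.77, 2.57 and 2.71 TPM.

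**Figure D1:**
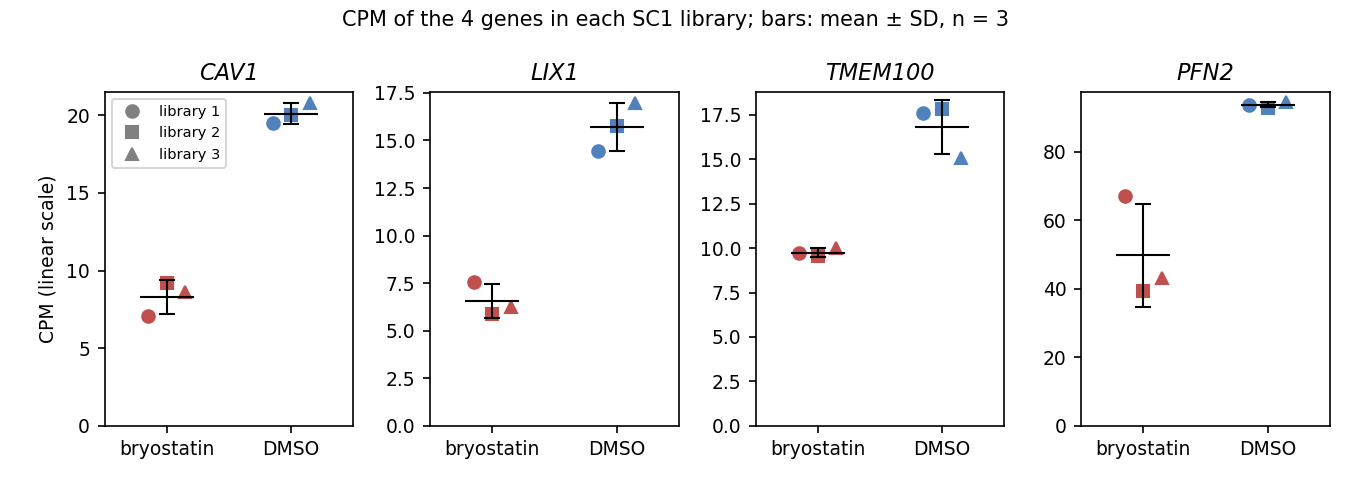
CPM (linear axis from 0, own scale per gene) of CAV1, LIX1, TMEM100 and PFN2 in bryostatin (left, red) and DMSO (right, blue) libraries; symbols mark the library number, and bars give mean ± SD over 3 libraries. Every bryostatin library lies below every DMSO library, and PFN2 in bryostatin 1 (67.0 CPM) lies apart from the other treated libraries.

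All 4 genes passed the filter on low counts, and in all 4 the groups did not overlap. Of 11613 tested genes, 12.5% had every bryostatin library below every DMSO library, and 0.835% were called lower (4.56% in either direction) by edgeR at the 0.05 threshold. The 4 were chosen on this contrast, so these shares are background and no p is given for them. The values that chose them were the log2 fold change and a sizeable level. To put such falls in order, that call and a mean level of 10 CPM or more were required here. The ordered list also required groups that do not overlap, so that trait is a condition of the list and no separate result. The ranks depend on these limits. In that order of 80 falls they ranked 1 (CAV1), 2 (LIX1), 5 (PFN2) and 8 (TMEM100). Between them stood PRDM1 (-1.07), FBP1 (-0.99), CABLES1 (-0.90) and MAN1A1 (-0.79), and just outside came FAM13A (-0.76), SOX4 (-0.75), TRIM2 (-0.71) and FRK (-0.71). Another 17 falls passed under 10 CPM, 3 of them with a log2 fold change below that of CAV1.

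**Figure D2:**
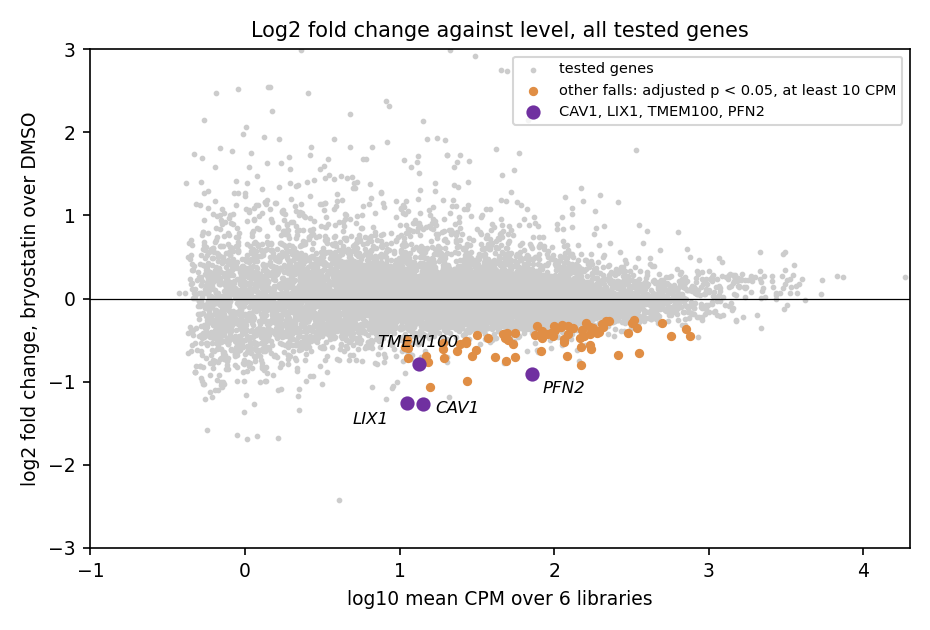
Log2 fold change (bryostatin over DMSO) against log10 mean CPM over 6 libraries for the 11613 tested genes (grey; 7 lie outside the axes), with the other 76 falls that passed at 10 CPM or more in orange and the 4 genes in purple. CAV1 and LIX1 lie lowest of these falls, at -1.27 and -1.26.

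In CPM the position of bryostatin 1 among the treated libraries differed between the 4 genes. Relative to the DMSO mean of log2 CPM, bryostatin 1, 2 and 3 lay at -1.49, -1.12 and -1.21 for CAV1 and at -1.05, -1.40 and -1.31 for LIX1. For PFN2 they lay at -0.48, -1.25 and -1.12, and for TMEM100 at -0.78, -0.81 and -0.74. Bryostatin 1 was thus the farthest from the controls for CAV1 and the nearest for LIX1 and PFN2. In TPM it was also the lowest treated library for CAV1 (3.92) and the highest for PFN2 (49.98). For LIX1 it was the highest by little (2.77 against 2.57 and 2.71 TPM), and for TMEM100 it was the lowest (9.05 TPM). In log2 CPM of bryostatin 2 and 3 the order was LIX1, then PFN2 in bryostatin 2 and CAV1 in bryostatin 3. TMEM100 was nearest to the controls in both. Among the other 76 falls, bryostatin 1 was the lowest treated library for 54 and the highest for 16, and among all 8179 tested genes of at least 10 CPM it was the lowest for 42.6% and the highest for 48.7%.

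**Figure D3:**
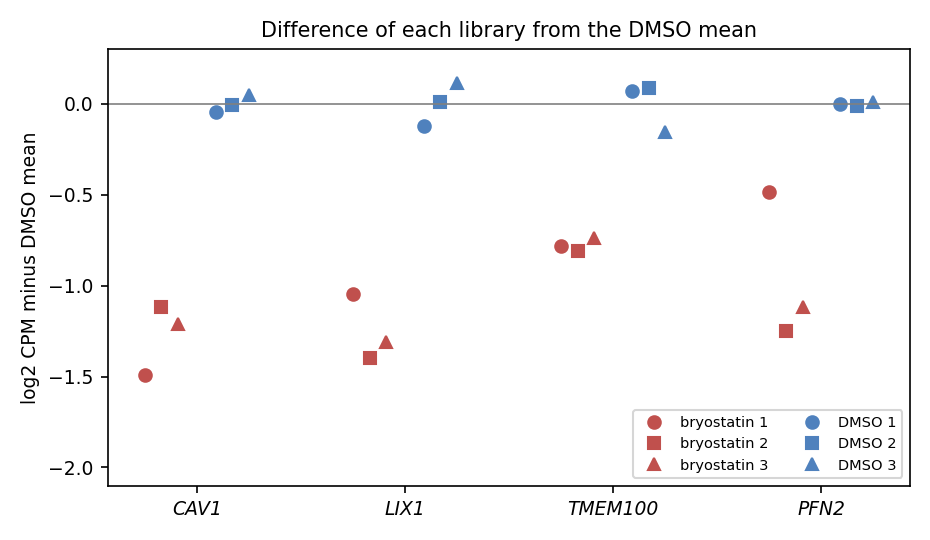
Log2 CPM minus the DMSO mean for each gene in each library (bryostatin red, at the left of each pair; DMSO blue; symbols mark the library number). Bryostatin 1 is the lowest treated point for CAV1 (-1.49) and the highest for LIX1 (-1.05) and PFN2 (-0.48), while the TMEM100 points lie between -0.81 and -0.74.

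Per length, on the deposited TPM scale, the order was PFN2, TMEM100, CAV1 and LIX1 in all 6 libraries. PFN2 averaged 41.2 ± 7.74 TPM in bryostatin and 84.2 ± 2.64 TPM in DMSO libraries. TMEM100 averaged 10.2 ± 1.02 TPM in bryostatin and 18.7 ± 1.39 TPM in DMSO libraries, and CAV1 5.20 ± 1.12 TPM in bryostatin and 13.4 ± 0.693 TPM in DMSO libraries. LIX1 was lowest, with 2.68 ± 0.103 TPM in bryostatin and 6.90 ± 0.629 TPM in DMSO libraries (SD, n = 3 each). Neighbours in this order did not overlap within either group. PFN2 lay above 76.0 to 82.9% of the genes with a TPM over 0 in bryostatin and 87.6 to 88.3% in DMSO libraries, and LIX1 above 34.1 to 35.8% in bryostatin and 45.4 to 47.3% in DMSO libraries. On this scale the mean bryostatin level was 0.490 times the DMSO level for PFN2, 0.546 for TMEM100, 0.389 for CAV1 and 0.389 for LIX1.

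Close relatives did not pass the test. PFN1, the ubiquitous profilin, was at 1686 ± 30.8 TPM in bryostatin and 1687 ± 51.8 TPM in DMSO libraries, and its counts gave 0.09 ± 0.09 on the log2 scale (edgeR adjusted p = 0.642), a sign that flipped on the TPM values and without bryostatin 1. PFN2 made up 2.83, 2.09 and 2.23% of the summed PFN1 and PFN2 TPM in bryostatin 1, 2 and 3, against 4.91, 4.47 and 4.88% in DMSO 1, 2 and 3. LIX1L, the paralogue of LIX1, was at 7.17 ± 0.121 TPM in bryostatin and 5.99 ± 0.376 TPM in DMSO libraries, and its log2 fold change was 0.36 ± 0.12 (edgeR adjusted p = 0.141). Over the alternatives that p ranged 0.0208 to 0.450, and leaving out bryostatin 1 gave 0.0444. LIX1 held 26.1 to 27.8% of the pair's TPM in bryostatin and 51.4 to 56.5% in DMSO libraries. These pair shares contain the values that chose PFN2 and LIX1 and are descriptions only. CAV2, which forms hetero-oligomers with caveolin-1, was close to the detection limit, at 0.180 to 0.310 TPM in bryostatin and 0.300 to 0.650 TPM in DMSO libraries (edgeR adjusted p = 0.477).

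Of 18 listed genes of the caveola coat and of membrane raft scaffolds, 13 were tested and 1 rose, a raft gene. FLOT2, a flotillin of membrane rafts that is not part of the caveola coat, rose by 0.61 ± 0.09 on the log2 scale, with 66.0, 57.0 and 56.9 CPM in bryostatin 1, 2 and 3 and 37.5, 41.9 and 38.5 CPM in DMSO 1, 2 and 3 (edgeR adjusted p = 0.0100). The other 12 did not pass, and the list median was -0.04 against -0.00139 over all tested genes, of which 3.72% were called higher. CAVIN1, the cavin that caveolae require, had 2.60 CPM in bryostatin and 3.44 CPM in DMSO libraries (log2 fold change -0.40 ± 0.27, adjusted p = 0.473). The membrane-bending ATPase EHD4 (0.27, adjusted p = 0.160) and the dynamin DNM2 (-0.17, adjusted p = 0.232) had the next smallest p. The FLOT2 call was lost without DMSO 1, 2 or 3 (adjusted p = 0.0845, 0.0508 and 0.0861, range over alternatives 1.89e-06 to 0.0861). Without bryostatin 1 the list had 3 risers and 1 fall, beside 1632 and 1551 of the 11790 genes tested then.

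Among genes that work with profilin in actin assembly, those that passed in edgeR on all 6 libraries rose. In addition, limma-voom with quality weights called 1 actin binder and 2 profilin ligands lower, and DESeq2 called 1 ligand lower. Over all 11613 tested genes, quality weights called 1431 lower and DESeq2 267. Of 18 tested monomer or filament-end binders, 4 rose and 14 did not pass, and 3.72% of all tested genes were called higher. The list median was 0.13 on the log2 scale. The thymosins TMSB4X and TMSB10, which sequester actin monomers, rose by 0.49 ± 0.08 and 0.32 ± 0.07 (edgeR adjusted p = 0.0143 and 0.0381). The capping protein subunit CAPZA1 rose by 0.40 and the cyclase-associated protein CAP1, which recycles monomers, by 0.33 (adjusted p = 0.0264 and 0.0439). TMSB4X had 1467, 1263 and 1322 CPM in bryostatin 1, 2 and 3, against 924.5, 1035 and 929.8 CPM in DMSO 1, 2 and 3. This list had 0 risers on the TPM values, without bryostatin 3 and without any 1 DMSO library, and 1 with the replicate block. It had 7 risers and 1 fall without bryostatin 1, beside 1632 and 1551 of the 11790 genes tested then.

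Of 27 tested profilin ligands and their partners, 6 rose and 21 did not pass, beside 3.72% called higher over all tested genes. The list median was 0.13 on the log2 scale. FMNL3, a formin, rose by 1.29 ± 0.20, with 16.7, 26.3 and 29.1 CPM in bryostatin 1, 2 and 3 and 10.3, 9.31 and 9.88 CPM in DMSO 1, 2 and 3 (edgeR adjusted p = 0.00961). VASP, which extends filaments from profilin-bound actin, rose by 0.87 ± 0.11 to 65.7 ± 9.47 CPM in bryostatin, against 36.0 ± 1.81 CPM in DMSO libraries (adjusted p = 0.00528, range over alternatives 4.24e-09 to 0.0517, the highest without DMSO 3). The leukocyte formin FMNL1 rose by 0.41, the Wiskott-Aldrich protein WAS by 0.46 and the WAVE complex subunits NCKAP1L and CYFIP2 by 0.36 and 0.31 (adjusted p = 0.0141, 0.0308, 0.0256 and 0.0215). ENAH, an ENA/VASP protein named after its values were seen, had 71.4 ± 3.03 CPM in bryostatin and 88.3 ± 4.55 CPM in DMSO libraries (-0.31 ± 0.08, adjusted p = 0.0643). Of the 6 risers, VASP alone passed on the TPM values with either pseudocount and without DMSO 1 or 2, VASP and FMNL3 passed without bryostatin 2 or 3 and with the replicate block, and 0 passed without DMSO 3. Without bryostatin 1 the list had 10 risers and 2 falls, beside 1632 and 1551 of the 11790 genes tested then. Of the 10 subunits of the ARP2/3 complex, which branches filaments, 0 passed in edgeR, with 6 at an unadjusted p under 0.05, a level that 18.7% of all tested genes reached. DESeq2 called 3 higher, limma-voom 0, and limma-voom with quality weights 6 higher and 1 lower. Over all 11613 tested genes DESeq2 called 649 higher and 267 lower, and quality weights 1609 higher and 1431 lower. ARPC1B (0.44 ± 0.10, edgeR adjusted p = 0.0523), ACTR2 (0.24, adjusted p = 0.0613) and ARPC2 (0.27, adjusted p = 0.0664) were nearest to the threshold.

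In the BMP and ALK1 pathway, 1 of 17 tested genes fell and 16 did not pass. The list median was -0.13, and 0.835% of all tested genes were called lower. HEY2, a repressor of the hairy family that BMP and Notch signals induce in endothelium, fell by 0.54 ± 0.09 on the log2 scale, with 14.9, 16.2 and 15.99 CPM in bryostatin 1, 2 and 3 and 22.01, 23.4 and 22.8 CPM in DMSO 1, 2 and 3 (edgeR adjusted p = 0.0146). That call was lost without DMSO 1, 2 or 3 (adjusted p = 0.0845, 0.0998 and 0.0974, range over alternatives 1.36e-04 to 0.0998), with the replicate block (0.0555) and on the TPM values with pseudocount 0.1 (0.0749). Without bryostatin 1 the list had 2 risers and 8 falls, beside 1632 and 1551 of the 11790 genes tested then. The dominant-negative helix-loop-helix factor ID2 (-0.26, adjusted p = 0.0948) and the signal transducer SMAD9 (-0.45, adjusted p = 0.111) did not pass. The receptor gene ACVRL1, which encodes ALK1, the co-receptor gene ENG and the channel gene TRPV1 did not pass the filter on low counts.

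In the YAP and TAZ list, 1 of 14 tested genes rose and 13 did not pass, against 3.72% called higher over all tested genes, a share too close to read anything about the list. The list median was -0.27, and it was -0.09 without bryostatin 1 or without DMSO 1. VGLL4, a co-factor that competes with YAP for TEAD proteins, rose by 0.65 ± 0.09, with 45.3, 41.9 and 48.7 CPM in bryostatin 1, 2 and 3 and 28.9, 28.8 and 28.7 CPM in DMSO 1, 2 and 3 (edgeR adjusted p = 0.00534). That call was lost on both TPM scales and at the omission of DMSO 1, 2 or 3 (adjusted p up to 0.0742 over the alternatives, and as low as 1.67e-07). YAP1 itself was near the floor, at 0.563 TPM in bryostatin and 0.737 TPM in DMSO libraries (adjusted p = 0.686). AJUBA (-0.40, adjusted p = 0.281) and AMOTL1 (-0.31, adjusted p = 0.321), which code for proteins that regulate the Hippo kinases and YAP, did not pass. Without bryostatin 1 the list had 2 risers and 2 falls, beside 1632 and 1551 of the 11790 genes tested then.

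**Figure D4:**
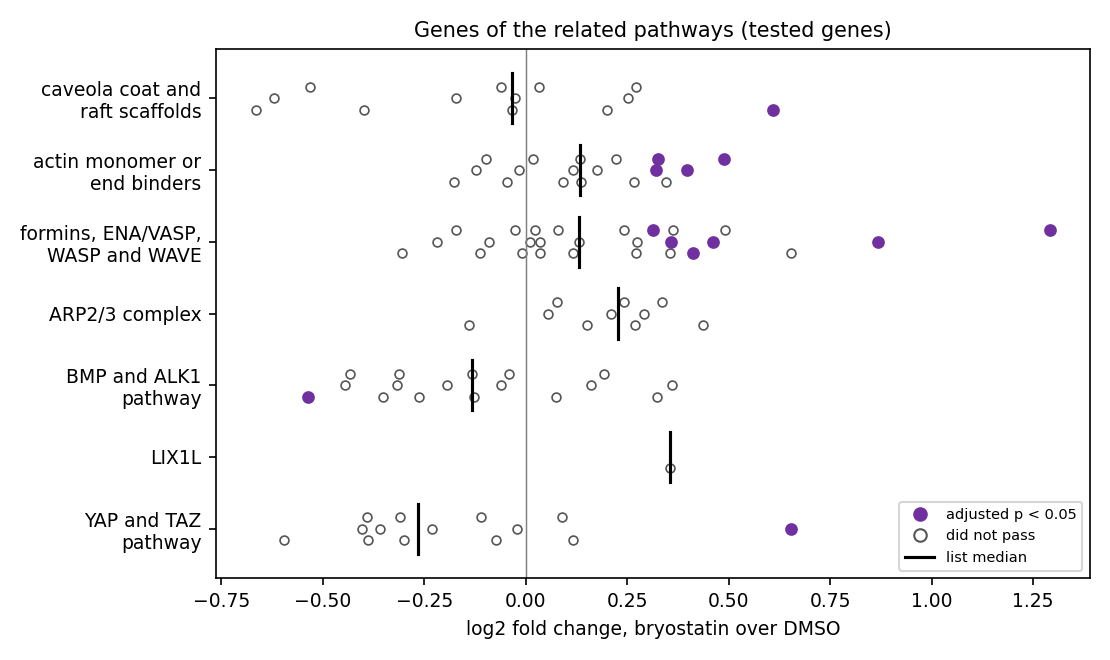
Log2 fold change (bryostatin over DMSO) of each tested gene of the related lists, filled where the adjusted p was under 0.05, with the list median as a vertical bar. Filled points of the actin lists lie at 0.31 or higher, and the filled point of the BMP list is HEY2 at -0.54.

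Neural transcripts are given beside these values because PFN2 is enriched in brain. Of 8 neural markers, 5 had values and 2 were tested. Their summed TPM was 82.1 to 100 in bryostatin and 123 to 135 in DMSO libraries, and most of it was the tubulin TUBB3, with 85.3 TPM in bryostatin and 123 TPM in DMSO libraries (log2 fold change -0.42, edgeR adjusted p = 0.163), and MAP2 (-0.09, adjusted p = 0.767). The other 3 had fewer than 10 counts in every library. The part of such transcripts in the PFN2 difference was not tested.

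The genes around the 4 did not pass with them. Of 24 neighbours (the 3 nearest genes of the table on each side), 19 were tested and 0 passed in edgeR, with 4 at an unadjusted p under 0.05, 2 of them lower. Over all tested genes that share was 18.7%, near that of the neighbours. DESeq2 called 1 lower, limma-voom 0, and limma-voom with quality weights 3 higher and 2 lower. Over all 11613 tested genes DESeq2 called 649 higher and 267 lower, and quality weights 1609 higher and 1431 lower. The median log2 fold change of the tested neighbours was -0.08. CAV2 lies 16.5 kb from CAV1. On the other side of CAV1, at 111 kb, lies MET, the hepatocyte growth factor receptor gene, which had 44.7, 60.8 and 58.3 CPM in bryostatin 1, 2 and 3 and 73.2, 69.1 and 69.7 CPM in DMSO 1, 2 and 3 (log2 fold change -0.37 ± 0.12, adjusted p = 0.137). Next to TMEM100, MMD lay at -0.37 ± 0.10 on the log2 scale (adjusted p = 0.0763) and PCTP, a phosphatidylcholine transfer protein gene 19.0 kb away, -0.03 ± 0.10 (adjusted p = 0.923). RIOK2, a ribosome-assembly kinase gene 18.3 kb from LIX1, had -0.05 ± 0.09 (adjusted p = 0.801). RNF13, a ubiquitin ligase gene 2.77 kb from PFN2, had 0.09 ± 0.09 (adjusted p = 0.617). Without bryostatin 1, 4 neighbours were called higher and 3 lower, beside 1632 and 1551 of the 11790 genes tested then. MET and MMD were among the lower ones (adjusted p = 0.00255 and 0.00187, ranges over alternatives 0.00255 to 0.418 and 0.00153 to 0.320).

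**Figure D5:**
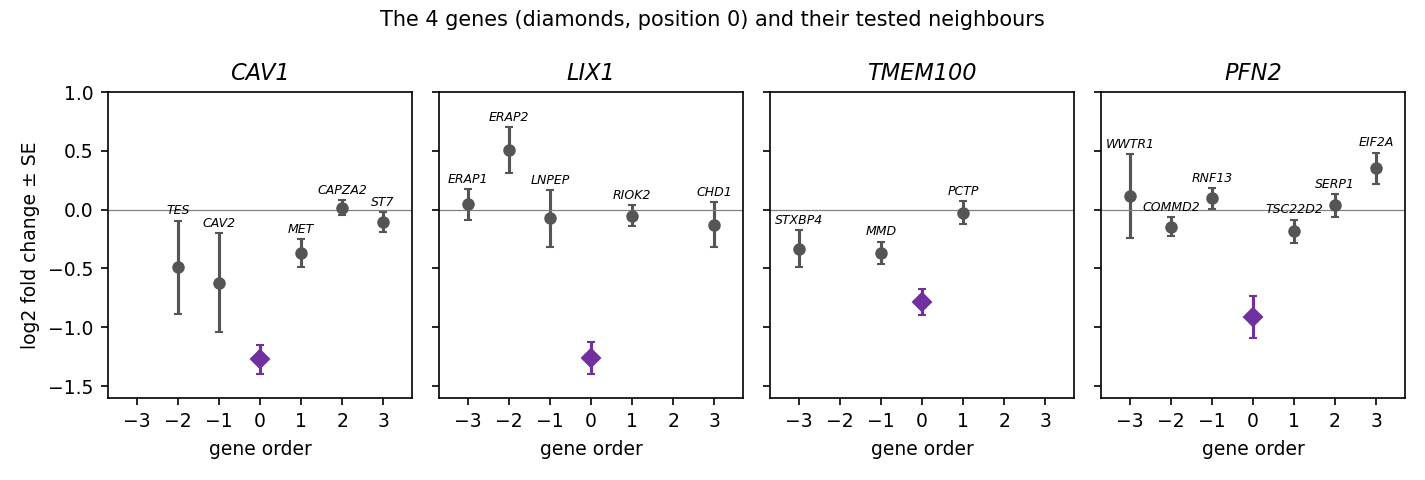
Log2 fold change ± SE of each of the 4 genes (purple diamond, position 0) and of its tested neighbours by gene order along the chromosome (grey). The neighbours lie between -0.62 and 0.51, above the gene at the centre in each panel.

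The genes whose values were most like each of the 4 were found among 8179 genes of at least 10 CPM by the root mean square difference over the 6 libraries of log2 CPM centred on the DMSO mean. For CAV1 they were PRDM1 (0.18), LIX1 (0.22), CABLES1 (0.26), MAN1A1 (0.34) and CNR1 (0.35), against a median of 0.91 over all genes. PRDM1, which encodes the plasma-cell factor Blimp-1, had 7.32, 11.4 and 11.98 CPM in bryostatin 1, 2 and 3, against 20.6, 21.9 and 21.9 CPM in DMSO 1, 2 and 3, with bryostatin 1 lowest as for CAV1. For PFN2 they were FBP1 (0.06), FAM13A (0.14), ZNF385B (0.15), SOX4 (0.24) and MGST3 (0.26), against a median of 0.72. FBP1, a gluconeogenic enzyme gene, had 23.8, 15.2 and 15.7 CPM in bryostatin 1, 2 and 3 and 35.8, 35.8 and 37.1 CPM in DMSO 1, 2 and 3, with bryostatin 1 highest of the treated libraries as for PFN2. For LIX1 the nearest were FBP1 (0.20), CAV1 (0.22), PFN2 (0.26), PRDM1 (0.35) and FAM13A (0.35), and for TMEM100 TSC22D3 (0.10), SOX4 (0.10), MAP1A (0.11), KLHL21 (0.11) and C4orf54 (0.12), against medians of 0.89 and 0.56. The size of the fall, which chose the 4 genes, enters these distances. Other genes with large falls, and the 4 genes themselves, therefore come out near by construction. The medians over all genes are no measure of shared behaviour. These distances describe 6 libraries and carry no test.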

How the data were processed

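Per the labels' protocols, samples passed at an RNA integrity above 7, and their polyadenylated RNA was reverse transcribed with random primers and sequenced from both ends. The submitters' processing notes list DESeq2 1.40.2, RSEM 1.2.28 and HISAT2 2.2.1 and the build GRCh38, without roles. The authors deposited expected counts (estimated counts, 6.31 to 7.22% not whole), FPKM values and TPM values for each library. Annotation and strand use are not given in the sources used here. FPKM and TPM, per the file headers, are the authors' values scaled by length.

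The rounded counts went into edgeR 4.0.16 under R 4.3.3 (TMM scaling, filterByExpr, robust quasi-likelihood fit, two-sided, Benjamini-Hochberg over 11613 genes, threshold 0.05). This edgeR fit gives every adjusted p unless an alternative is named. The SE is the log2 fold change divided by the root of F. The fit was tested on simulated data. Log2 CPM used a prior count of 2. The members and lists were chosen with earlier results of these data known. Named genes were the 4 genes, CAV2, PFN1 and LIX1L, called genes and the 3 smallest p of each list, neighbours, the 5 most similar genes, and those around the selection limit. YAP1, CAVIN1, ENAH, ACVRL1, ENG, TRPV1 and marker genes were added after values were seen. Of 15802 identifiers, 15763 matched RefSeq GRCh38.p14. Overlaps come from GENCODE release 29 (GRCh38). Alternatives were other scalings and filters, DESeq2 1.42.0, limma 3.58.1 (voom, quality weights, log2 TPM), the replicate block and leaving out each library. No 2 libraries of a group were duplicates (chi-square per gene 2.65 or more). A listed marker gene is not reported here.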

Additional observations from a re-analysis of the deposited data

How the results depend on the processing

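Under all 17 alternatives the 4 genes stayed lower in bryostatin. Since they were chosen as falls and their groups did not overlap, this direction was largely fixed in advance and is no separate result. The log2 fold change ranged from -1.37 to -1.17 for CAV1, -1.37 to -1.10 for LIX1, -0.87 to -0.74 for TMEM100 and -1.19 to -0.77 for PFN2. LIX1 at -1.10 on log2(TPM + 1) moved by more than the replicate SD. The call used for the ordered list was not met by TMEM100 without DMSO 1 or 2, nor by PFN2 without bryostatin 2 or 3 or without DMSO 1, 2 or 3. TPM values with pseudocount 0.1 shifted the median of all genes to -0.10.

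Genes called higher and lower were 432 and 97. They were 649 and 267 by DESeq2, 1609 and 1431 with quality weights, 187 and 56 on TPM with pseudocount 1, 134 and 35 with pseudocount 0.1, and 284 and 54 with the replicate block. Leaving out 1 library gave 128 to 1632 higher and 10 to 1551 lower, highest without bryostatin 1. Deviations of same-numbered libraries from their group means had correlations of -0.18, -0.16 and 0.07. With 3 libraries per mean and bryostatin 1 standing apart, these values cannot say whether the replicate numbers pair the libraries.

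Quality weights gave 3 higher for the caveola list, 7 and 1 for actin binders, 10 and 2 for profilin ligands (median 0.17), 6 and 1 for ARP2/3, 2 and 8 for BMP, 1 higher for LIX1L, 1 lower for YAP, and 3 and 2 for neighbours. DESeq2 gave 1 lower profilin ligand, 3 higher for ARP2/3, 2 lower for BMP and 1 lower neighbour. TPM with pseudocount 1 gave 0 higher actin binders, 1 higher profilin ligand (median 0.073), 0 higher YAP genes and a caveola median of -0.12. Pseudocount 0.1 gave 0, 1 and 0 for these lists, 0 lower for BMP (median -0.23) and a caveola median of -0.13. The replicate block left 1 actin binder, 2 profilin ligands and 0 BMP genes. Without scaling, ARP2/3 had 1 higher, BMP 2 lower and caveola a median of -0.072. Upper quartile factors gave ARP2/3 1 higher. Without a filter, ARP2/3 had 1 higher, actin binders 2, and profilin ligands a median of 0.18.

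With 1 library left out, higher calls ranged 0 to 3 for caveola, 0 to 7 for actin binders, 0 to 10 for profilin ligands, 0 to 6 for ARP2/3, 0 to 2 for BMP, 0 to 1 for LIX1L, 0 to 2 for YAP and 0 to 4 for neighbours. Lower calls ranged 0 to 1, 0 to 1, 0 to 2, 0 to 1, 0 to 8, 0 to 0, 0 to 2 and 0 to 3. Medians ranged -0.054 to 0.013 for caveola (above 0 without DMSO 2), 0.10 to 0.21 for profilin ligands, 0.082 to 0.17 for actin binders (lowest without bryostatin 1), -0.31 to -0.089 for YAP and -0.17 to -0.069 for BMP.

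Genes near 0 changed sign. CAPZA2 had -0.022 without scaling, and -0.074 and -0.076 on TPM. SERP1 had -0.0061 without scaling, -0.06 with quality weights, and -0.0639 and -0.0644 on TPM. ERAP1 had -0.070 and -0.073 on TPM. PFN1 had -6e-04 on TPM, and WWTR1 -0.0114 with pseudocount 0.1. LNPEP (0.16) and CHD1 (0.062) turned with quality weights. With 1 library left out, PFN1 ranged -0.0088 to 0.15, CAPZA2 -0.0079 to 0.038, ERAP1 -0.077 to 0.19, LNPEP -0.28 to 0.19, CHD1 -0.26 to 0.084, PCTP -0.11 to 0.020, WWTR1 -0.24 to 0.36 and SERP1 -0.080 to 0.095. The cause was not tested. On log2(TPM + 1), 3 of the 5 genes most like LIX1 and 3 of those most like TMEM100 were kept. With 109 to 394 counts, CAV1, LIX1 and TMEM100 carry counting errors of 5 to 10% per library.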
